A study of Mus musculus with 12 samples.

Results

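The 10 monocyte marker genes described here, *Ly6c2*, *Ccr2*, *Plac8*, *Chil3*, *S100a4*, *S100a6*, *Lyz2*, *Vcan*, *Hp* and *Ifitm6*, are genes by which circulating monocytes are commonly recognized, and were taken by name from the 47643 genes of the count table. All 10 had counts, and all 10 were among the 11103 genes tested. Bulk RNA sequencing was performed on brain cells of 5 male p16-3MR mice of a C57BL/6 background, which were 113, 115, 116, 116 and 116 weeks old (mice 1 to 5). Every mouse carried the 3MR transgene, in which the p16 promoter drives a red fluorescent protein (RFP) joined to Renilla luciferase and a truncated viral thymidine kinase, and the labels name no treatment. All animals were old and carried the transgene, so the comparison is between cell populations and not between animals. Each animal gave 1 sample of viable, nucleated cells with little fluorescence (RFPneg, called RFPLow in the study) and 1 with strong fluorescence (RFPpos, called RFPHigh), so both populations were bulk mixtures of all brain cell types that fell in the gate. The single-cell samples of the series were not analysed here.

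Classical monocytes are made in the bone marrow, carry the surface antigen Ly6C and enter tissues along a gradient of Ccr2 ligands. In the brain they lie in vessels and at the borders, and they are separate from the microglia, the resident macrophages that colonize the brain before birth and that express little *Ccr2* or *Ly6c2*. Several of the genes are shared with other cells: *Lyz2* with macrophages and neutrophils, *S100a4* and *S100a6* with lymphocytes and glia, *Chil3* and *Hp* with neutrophils, and *Vcan* with oligodendrocyte progenitors and the cells of the vessel wall.

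The monocyte marker genes were lower in RFPpos. Of the 10 genes, 8 were called lower and 0 were called higher (none lay above 0 at any p, also with the likelihood ratio test or DESeq2), where 7.42% of all genes tested were called lower and 3.39% were called higher. Calls needed a Benjamini-Hochberg adjusted p under 0.05 and a log2 fold change beyond 1 in either direction, in edgeR's quasi-likelihood test with the mouse as a block. The 2 genes not called were *Lyz2*, whose change stayed under the fold threshold, and *Hp*, which had few counts. For 7 genes every RFPpos sample lay below every RFPneg sample, a pattern found for 6.78% of the genes tested, and 4 genes (*Ly6c2*, *Chil3*, *Hp* and *Ifitm6*) had 0 counts in every RFPpos sample, as did 1.31% of the genes tested. The median log2 fold change was −4.46 over the 10 genes, −2.82 with the 4 genes at 0 set to their limits, and −0.10 over all genes tested. Since 8 of the 10 genes had fewer than 15 counts over the RFPpos samples, they passed the minimum of 15 counts over all samples only with the counts of RFPneg, so these counts and medians describe the genes and do not stand as a test of the list. In bulk samples such as these, fewer monocytes and less of these RNAs per cell cannot be told apart.

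Library totals over genes were 177287 to 415834 counts for RFPneg (median 248471) and 222560 to 289713 for RFPpos (median 242798). The 3′ library kit reads each transcript once, close to its end, and levels are in CPM, counts scaled to the same library total, without correction for length. At this depth 1 sample with 0 counts leaves a level of up to 16.9 CPM undetected (3 counts in the smallest library). Intervals given here cover counting error only. Limits for genes at 0 in RFPpos set 3 counts there and leave out the counting error of RFPneg. Of the microglia core list 15 of 20 genes were called higher in RFPpos (0 of 20 with library sizes taken from this list itself), with 2.23% ± 0.440 of the counts in RFPneg and 4.57% ± 0.437 in RFPpos (SD, n = 5 each).

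**Figure D1:**
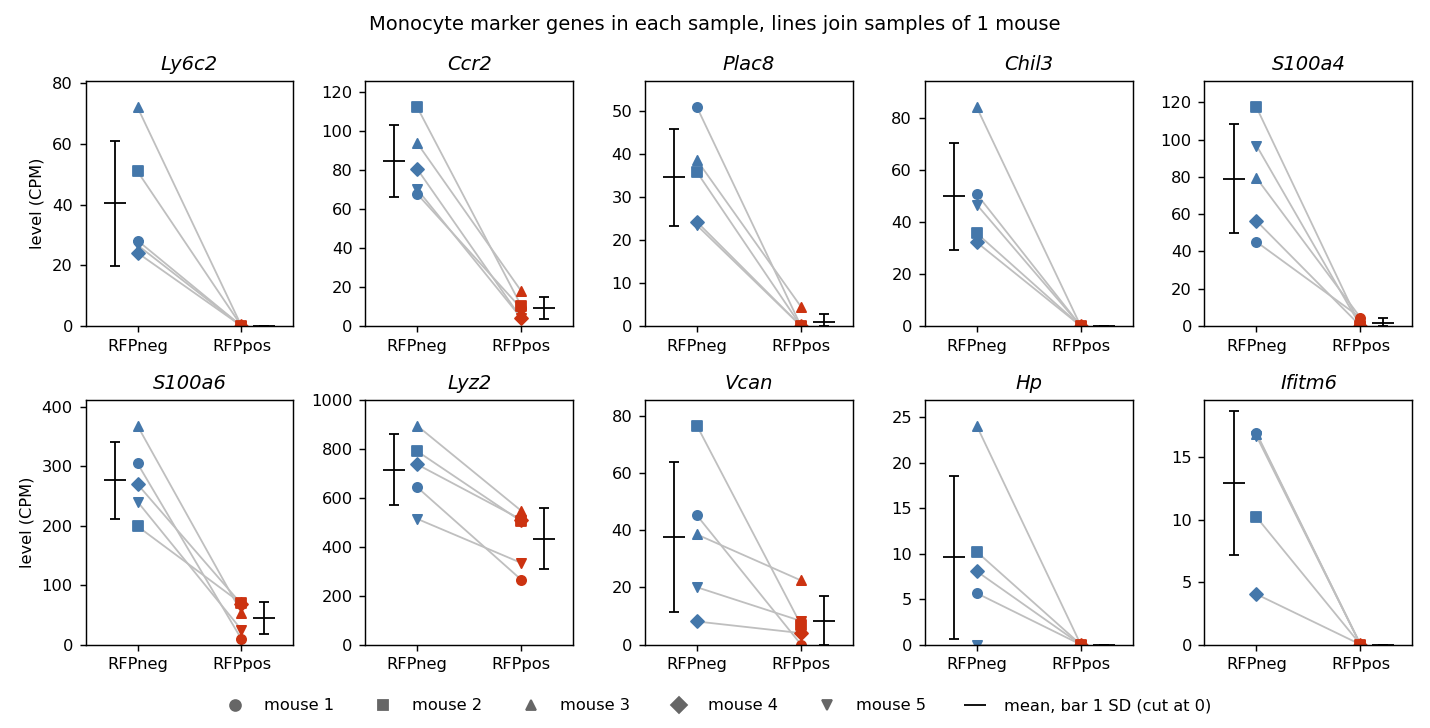
Level of each of the 10 monocyte marker genes in CPM (vertical axes start at 0 and differ between panels) in the RFPneg (blue) and RFPpos (red) sample of mice 1 to 5, with lines joining the samples of 1 mouse and black bars at the mean ± 1 SD. The lines fall for 5 of 5 mice in every gene except *Hp*, which falls in 4 of 5 and has no count in mouse 5.

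The promoters of 5 of the genes are shown because they contrast some of the genes with 0 to 2 counts in RFPpos (*Ly6c2*, *Plac8*, *Chil3* and *S100a4*) with *Lyz2*, which had 536. *Ifitm6* and *Hp*, also at 0 counts in RFPpos, are not shown. RefSeq sequences of GRCm38.p6 from 250 bases before to 50 bases after the transcription start were found for 9 of the 10 genes, all but *Hp*, and the first entry was used where there were 2. Capitals mark GAGGAA, the core of the site read by PU.1, a factor of the myeloid lineage, or its reverse complement TTCCTC, and TATAAA, the letters of a TATA box. GAGGAA also holds the GGAA shared by the ETS factors, to which PU.1 belongs.
Ly6c2 chr15:75111922-75112221, minus strand: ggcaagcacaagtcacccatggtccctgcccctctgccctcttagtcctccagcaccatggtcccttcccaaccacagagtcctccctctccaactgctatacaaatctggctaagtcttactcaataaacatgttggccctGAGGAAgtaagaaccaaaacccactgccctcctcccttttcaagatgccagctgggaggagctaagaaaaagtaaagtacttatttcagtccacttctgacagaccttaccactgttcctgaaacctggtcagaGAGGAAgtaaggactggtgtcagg
Plac8 chr5:100572156-100572455, minus strand: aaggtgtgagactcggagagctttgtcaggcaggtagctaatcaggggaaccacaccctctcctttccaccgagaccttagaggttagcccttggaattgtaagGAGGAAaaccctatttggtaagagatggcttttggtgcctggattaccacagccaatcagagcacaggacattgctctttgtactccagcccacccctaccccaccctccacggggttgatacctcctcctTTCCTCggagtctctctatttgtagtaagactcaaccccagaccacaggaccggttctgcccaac
Chil3 chr3:106167515-106167814, minus strand: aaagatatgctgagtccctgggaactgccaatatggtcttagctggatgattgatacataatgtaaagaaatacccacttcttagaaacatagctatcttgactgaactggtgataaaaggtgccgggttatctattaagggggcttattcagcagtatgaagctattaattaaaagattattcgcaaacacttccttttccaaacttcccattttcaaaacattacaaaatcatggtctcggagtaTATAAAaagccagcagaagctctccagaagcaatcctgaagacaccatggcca
S100a4 chr3:90603520-90603819, plus strand: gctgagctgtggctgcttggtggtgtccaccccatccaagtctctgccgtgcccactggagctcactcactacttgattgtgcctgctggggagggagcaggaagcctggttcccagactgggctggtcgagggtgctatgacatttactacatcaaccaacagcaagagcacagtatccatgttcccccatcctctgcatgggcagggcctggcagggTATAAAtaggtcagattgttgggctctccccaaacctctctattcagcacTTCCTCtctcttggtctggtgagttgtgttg
Lyz2 chr10:117282223-117282522, minus strand: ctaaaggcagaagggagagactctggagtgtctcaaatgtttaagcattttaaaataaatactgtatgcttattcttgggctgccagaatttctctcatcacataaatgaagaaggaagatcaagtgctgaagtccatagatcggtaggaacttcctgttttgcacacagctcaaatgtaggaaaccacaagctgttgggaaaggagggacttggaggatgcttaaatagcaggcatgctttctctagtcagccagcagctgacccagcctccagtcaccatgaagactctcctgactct
On either strand, GAGGAA occurred in 3 of the 9 promoters (*Ly6c2* and *Plac8* with 2 matches each, *S100a4* with 1) and in 28.3% of 32841 promoters of the same length. TATAAA occurred in 3 of the 9 (*Chil3*, *S100a4* and *Ifitm6*) and in 13.6% of all, and TTGCNNAA, a site of the C/EBP factors, in 0 of the 9 and in 10.8% of all. The TATAAA of *Chil3* began at base 248 of the window and ran across the annotated transcription start. Relative to that start its place is not that of a TATA box, and other starts were not examined. Those of *S100a4* and *Ifitm6* began at bases 220 and 205, before the start. *Lyz2*, *S100a6*, *Ccr2* and *Vcan* held none of these runs of letters in this window, and the shorter GGAA was not counted. A match is a run of letters and was not tested as a binding site.

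*Ly6c2* encodes the Ly6C antigen by which classical monocytes are sorted. It lies on chromosome 15 (GRCm38, 75108158 to 75111970, minus strand; ENSMUSG00000022584). It had 5, 10, 30, 6 and 8 counts in the RFPneg samples of mice 1 to 5 and 0 in every RFPpos sample. The RFPneg samples held 40.4 ± 20.7 CPM (SD, n = 5), with mouse 3 highest at 72.1, and the groups did not overlap. Pooled over samples, the level was 18.1-fold lower in RFPpos when RFPpos was set at 3 counts over the group, and the adjusted p was 1.34e-06 from edgeR. *Ly6c1*, the neighbouring gene that endothelial cells express, had 37, 150, 316, 232 and 143 counts in RFPneg and 1, 1, 1, 10 and 4 in RFPpos. The genes are near copies, and 20.6% of the 50-base windows in the last 500 bases of *Ly6c2* also occurred in *Ly6c1*, *Ly6a* or *I830127L07Rik*, so some *Ly6c2* counts in RFPneg are uncertain. How many of them come from these neighbours was not tested.

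*Ccr2* encodes the chemokine receptor that monocytes need to leave the bone marrow and to enter inflamed tissue (chromosome 9, 124101950 to 124113557, plus strand; ENSMUSG00000049103). It had 12, 22, 39, 20 and 21 counts in RFPneg and 2, 3, 4, 1 and 1 in RFPpos, so that every RFPpos sample had a few counts and none reached the lowest RFPneg sample. The level was 84.8 ± 18.4 CPM in RFPneg and 9.08 ± 5.71 in RFPpos (SD, n = 5 each), with a log2 fold change of −3.11 (SE 0.51, adjusted p = 9.71e-08 from edgeR). Pooled over samples, 10.5% of the RFPneg level was left (95% interval 5.10 to 19.5%). *Ccr2* varied little among the RFPneg samples, with a coefficient of variation of 21.7%, where counting alone gives 21.9%.

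*Vcan* encodes versican, a matrix proteoglycan that classical monocytes produce (chromosome 13, 89655312 to 89742509, minus strand; ENSMUSG00000021614). It had 8, 15, 16, 2 and 6 counts in RFPneg and 0, 2, 5, 1 and 2 in RFPpos. It was lower in RFPpos in 5 of 5 mice, but the groups overlapped, since the RFPneg samples of mice 4 and 5 (8.05 and 20.02 CPM) lay below the RFPpos sample of mouse 3 (22.4 CPM). The log2 fold change was −1.97 (SE 0.70, adjusted p = 0.0420 from edgeR). The call was lost without mouse 1 (adjusted p = 0.192 from edgeR), mouse 2 (0.304) or mouse 3 (0.0584), and with DESeq2 (0.127). The oligodendrocyte progenitor list, whose cells also express *Vcan*, took 0.0527 to 0.106% of the counts in RFPneg and 0.00809 to 0.0825% in RFPpos. Most of these counts lay on *Ptprz1*, which was not called (671 of 1004 in RFPneg and 683 of 713 in RFPpos). Of the 10 genes of the list 5 were at 0 in every RFPpos sample. Among the 7 tested 3 were at 0 (1.31% of all genes tested were), and 5 were called lower (7.42% of all were). Those 5 had fewer than 15 counts over the RFPpos samples and passed the minimum only with the counts of RFPneg. The part of these cells in the *Vcan* values was not tested.

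*Plac8* encodes a small cysteine-rich protein of monocytes and other leukocytes (chromosome 5, 100553725 to 100572245, minus strand; ENSMUSG00000029322). It had 9, 7, 16, 6 and 7 counts in RFPneg and 0, 0, 1, 0 and 0 in RFPpos. The only RFPpos count was in mouse 3. The level in RFPneg was 34.5 ± 11.3 CPM (SD, n = 5), and the log2 fold change was −4.66 (SE 1.01, adjusted p = 1.26e-04 from edgeR). With a single count the pooled ratio, 41.3-fold lower in RFPpos, had a 95% interval from 7.05 to 1669.

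*Chil3* encodes Ym1, a chitinase-like secreted protein of monocytes, neutrophils and alternatively activated macrophages (chromosome 3, 106147554 to 106167564, minus strand; ENSMUSG00000040809). Its counts were 9, 7, 35, 8 and 14 in RFPneg and 0 in every RFPpos sample, and the RFPneg samples held 49.9 ± 20.6 CPM (SD, n = 5). With RFPpos set at 3 counts, the level was 22.4-fold lower there (adjusted p = 2.98e-08 from edgeR), and mouse 3 stood highest among the RFPneg samples at 84.2 CPM. The 3′ end of *Chil3* shared 17.1% of its 50-base windows with *Chil4* and *Gm6522*, but *Chil4* had 0 counts in all samples.

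*Ifitm6* encodes an interferon-induced transmembrane protein found mainly in myeloid cells (chromosome 7, 141015699 to 141017924, minus strand; ENSMUSG00000059108). It had 3, 2, 7, 1 and 5 counts in RFPneg and 0 in every RFPpos sample. The RFPneg samples held 12.9 ± 5.75 CPM (SD, n = 5), and with RFPpos set at 3 counts the level was 5.51-fold lower there (adjusted p = 0.0321 from edgeR). With 18 counts in all, the call did not hold without mouse 1 (adjusted p = 0.0898 from edgeR), mouse 2 (0.0899) or mouse 4 (0.0524), or with all genes of at least 1 count tested (0.0757), and without mouse 3 or 5 the gene fell under the minimum. The broadly expressed relatives *Ifitm2* and *Ifitm3*, which restrict viral entry, were called lower too. *Ifitm3* had 30, 46, 143, 71 and 67 counts in RFPneg and 4, 17, 31, 19 and 12 in RFPpos (log2 fold change −1.88, SE 0.27, adjusted p = 6.69e-10 from edgeR), and *Ifitm2* had 48 counts in RFPneg and 10 in RFPpos (−2.14, SE 0.70, 0.0220).

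*Hp* encodes haptoglobin, the carrier of free haemoglobin, which the liver and myeloid cells make (chromosome 8, 109575128 to 109579172, minus strand; ENSMUSG00000031722). It had 1, 2, 10, 2 and 0 counts in RFPneg and 0 in every RFPpos sample. Mouse 3 alone gave 10 of the 15 counts, and mouse 5 had none in either sample. With RFPpos set at 3 counts the level was 4.59-fold lower there, but the gene was not called (adjusted p = 0.0861 from edgeR). Without the mouse block the adjusted p was 0.0326, and with the likelihood ratio test of the study it was 0.0145.

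Among the calcium-binding S100 proteins, *S100a4* kept 2.03% of its pooled RFPneg level in RFPpos and *S100a6* 16.1%. *S100a4* encodes a protein of motile cells (chromosome 3, 90603771 to 90606045, plus strand; ENSMUSG00000001020). It had 8, 23, 33, 14 and 29 counts in RFPneg and 1, 0, 1, 0 and 0 in RFPpos. The groups were far apart, at 79.0 ± 29.3 and 1.80 ± 2.46 CPM (SD, n = 5 each), and the log2 fold change was −5.13 (SE 0.69, adjusted p = 8.64e-11 from edgeR). The annotation places *Gm42674* over *S100a4* on the same strand, with 56.4% of the 3′ windows of *S100a4* in common, and no read was assigned to *Gm42674*. Whether reads that fit both genes were left out as ambiguous was not tested.

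*S100a6* encodes calcyclin, which glia and vessel cells also make; it lies beside *S100a4* in the S100 cluster (90612882 to 90624181, plus strand; ENSMUSG00000001025). It had 54, 39, 153, 67 and 72 counts in RFPneg and 2, 20, 12, 17 and 6 in RFPpos. The RFPneg samples held 276 ± 64.3 CPM and the RFPpos samples 44.9 ± 26.9 (SD, n = 5 each), without overlap. The RFPpos samples themselves spread widely, from 8.99 CPM in mouse 1 to 69.0 in mouse 2. The log2 fold change was −2.53 (SE 0.28, adjusted p = 2.67e-15 from edgeR), and 16.1% of the pooled RFPneg level was left (95% interval 11.98 to 21.3%). The RFPpos sample of mouse 1 also had the lowest share of the astrocyte list, 0.0930%. In mice 2 to 5 that share was 0.286, 0.582, 0.546 and 0.465%, where *S100a6* was at 69.0, 53.8, 67.9 and 24.7 CPM. Those 4 samples did not keep the same order in both. The sample of mouse 1 had the lowest share of the oligodendrocyte progenitor list too, where *Ptprz1* had 15 counts against 152 to 181 in the other RFPpos samples. *Olig1* and *Olig2* of that list were not lowest in mouse 1. The part of glial cells in the *S100a6* values was not tested. The family members *S100a10*, a partner of annexin A2, with 72 counts in RFPneg and 21 in RFPpos, and *S100a11*, with 127 and 12, were called lower as well (log2 fold changes −1.57 and −3.12, SE 0.52 and 0.49, adjusted p = 0.0235 and 2.67e-08 from edgeR).

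*Lyz2* encodes lysozyme M, which monocytes, macrophages and neutrophils secrete and microglia express at a lower level (chromosome 10, 117277331 to 117282321, minus strand; ENSMUSG00000069516). It had 114, 155, 372, 183 and 154 counts in RFPneg and 59, 146, 122, 128 and 81 in RFPpos. It was lower in RFPpos in 5 of 5 mice, but the RFPneg sample of mouse 5 (513.9 CPM) lay below the RFPpos sample of mouse 3 (547 CPM), so the groups overlapped. The levels were 716 ± 145 and 432 ± 125 CPM (SD, n = 5 each). The log2 fold change was −0.65 (SE 0.20, adjusted p = 0.0128 from edgeR), so that 59.7% of the pooled level was left (95% interval 53.6 to 66.4%) and the gene was not called. With library sizes taken from the microglia core list instead, the log2 fold change of *Lyz2* was −1.80 and it was called (adjusted p = 2.11e-13 from edgeR). That scaling moved the median of all genes tested by −1.13, and *Lyz2* lay lower than that median under both. *Lyz1*, the near copy that shared 16.9% of the 3′ windows of *Lyz2*, had 3 counts in all.

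**Figure D2:**
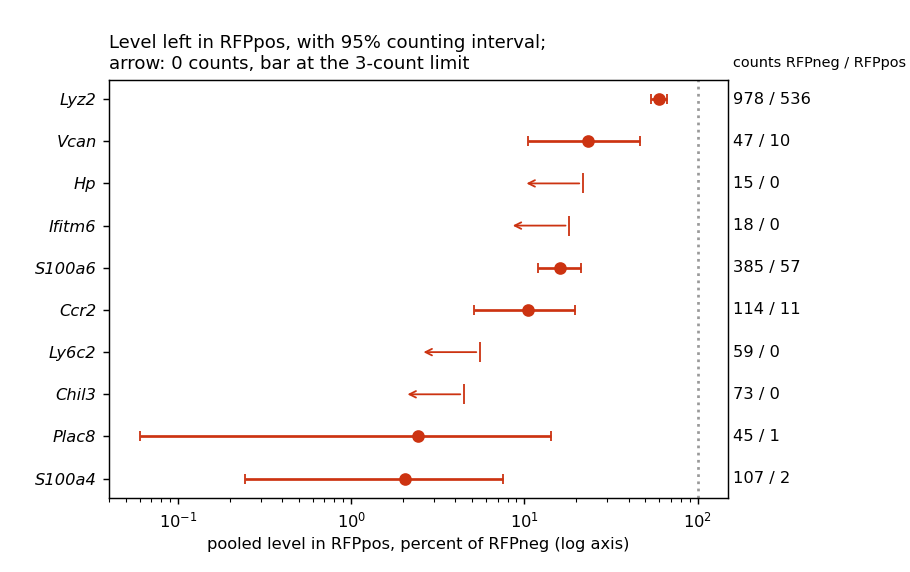
Pooled level of each gene in RFPpos as a percent of its pooled level in RFPneg (log axis), with 95% counting intervals, and total counts at the right. The genes run from *Lyz2* with 59.7% left to *S100a4* with 2.03%, and the 4 genes with 0 counts are drawn as arrows that start at the limit of 3 counts.

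The size of the decrease was compared within mice. In the 3 genes with counts in every sample, the log2 ratio of RFPpos to RFPneg within a mouse was −0.76 ± 0.30 for *Lyz2*, −2.93 ± 1.38 for *S100a6* and −3.43 ± 0.81 for *Ccr2* (mean ± SD, n = 5 mice). The ratio of *Lyz2* lay above that of *S100a6* by 2.17 and than that of *Ccr2* by 2.67 on the log2 scale, each in 5 of 5 mice. *S100a6* and *Ccr2* differed by 0.50 ± 1.83, with mice in both directions. Over the 3 pairs compared, exact two-sided sign-flip permutation tests over mice gave p = 0.0625 for both comparisons with *Lyz2* (adjusted p = 0.0938) and 0.5625 for *S100a6* with *Ccr2*, and 0.0625 is the smallest p that 5 pairs allow.

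The 10 genes together took 0.134% ± 0.0247 of the counts in RFPneg and 0.0497% ± 0.0158 in RFPpos (SD, n = 5 each), lower in 5 of 5 mice, and the samples did not overlap (0.105 to 0.171% and 0.0288 to 0.0650%). *Lyz2* made up 53.3% ± 4.01 of these counts in RFPneg and 87.8% ± 3.31 in RFPpos, and *S100a6* 20.8% and 8.27%. Between 9 and 10 of the genes had a count in each RFPneg sample, and 4 to 6 had one in each RFPpos sample. Without *Lyz2* and *S100a6* the other 8 genes had 478 counts in RFPneg and 24 in RFPpos, or 0.0349% ± 0.00948 and 0.00201% ± 0.00167 of the counts (SD, n = 5 each), a ratio of the mean shares of 17.4, with 5.47% of the pooled level left.

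Among the RFPneg samples the genes did not share 1 order. Mouse 3 was highest in *Ly6c2*, *Chil3*, *S100a6*, *Lyz2* and *Hp*, mouse 2 in *Ccr2*, *S100a4* and *Vcan*, and mouse 1 in *Plac8* and *Ifitm6*. The coefficient of variation was near or below that of counting alone for *Ccr2*, *Plac8* (32.8 against 34.9%) and *Ifitm6* (44.4 against 55.2%). It was above it for the other 7 genes, from *Lyz2* (20.3 against 7.49%), *S100a6* (23.3 against 11.9%) and *Vcan* (69.7 against 34.2%) to *Ly6c2* (51.3 against 30.5%), *Chil3* (41.3 against 27.4%), *S100a4* (37.1 against 22.6%) and *Hp* (93.2 against 60.5%). The RFPneg sample of mouse 3 also had the highest share of the neutrophil list, 0.769%, where the other RFPneg samples had 0.257 to 0.460%. Neutrophils also express *Chil3*, *Hp* and *Lyz2*, and their part in these values was not tested. Without mouse 3, *Ly6c2*, *Ccr2*, *Plac8*, *Chil3*, *S100a4* and *S100a6* were still called lower.

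**Figure D3:**
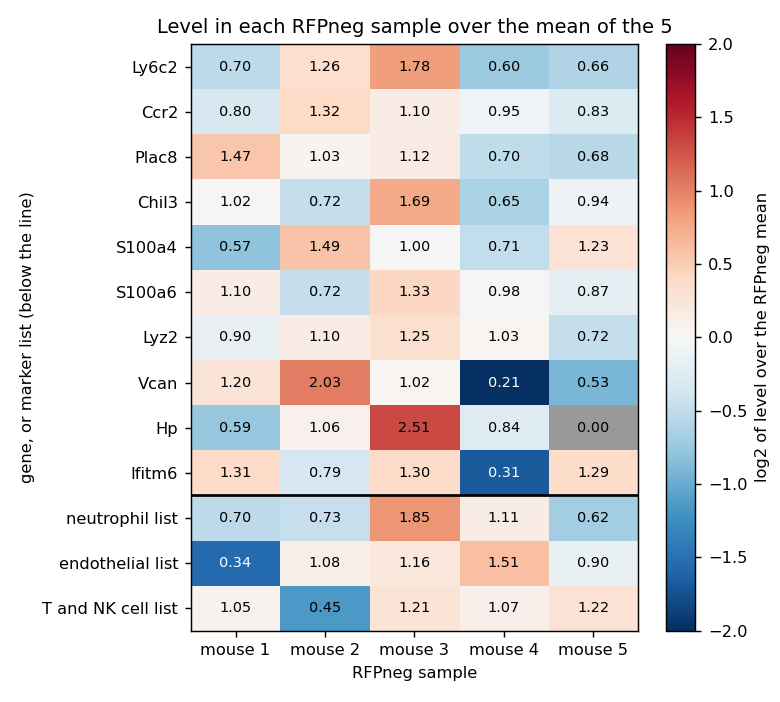
Level of each gene in the RFPneg sample of each mouse divided by the mean of the 5 samples, with the same for 3 marker lists under the line; colours give the log2 of the printed ratio, and grey is 0 counts. Mouse 3 stands at 1.78 in *Ly6c2*, 1.69 in *Chil3*, 2.51 in *Hp* and 1.85 in the neutrophil list, while *Ccr2* stays between 0.80 and 1.32.

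Other genes of classical monocytes were mixed in direction. Of a further list of 22 genes, 13 had enough counts to be tested, with a median log2 fold change of −1.38. Of these 13, 4 were called lower (*Klf4*, *Fn1*, *Gda* and *Itga4*), where 7.42% of all genes tested were. Of the 4, all but *Fn1* passed the minimum of 15 counts only with the counts of RFPneg. Called higher were 0 (2 at an unadjusted p under 0.05, and 0 with the likelihood ratio test or DESeq2). *Klf4*, a transcription factor of monocytes that endothelial cells also express, had 234 counts in RFPneg and 5 in RFPpos (log2 fold change −5.22, SE 0.48, adjusted p = 1.85e-21 from edgeR). *Itga4*, the α4 integrin, had 57 and 13 counts (−1.73, SE 0.62, 0.0421). In contrast, *Clec4a3*, *Ccr1*, *Irf5* and *Cebpb* had log2 fold changes above 0, between 0.22 and 0.89, and none of these passed the test (lowest adjusted p = 0.0590 from edgeR). The genes *Fn1*, *Gda*, *Clec4a3*, *Ccr1*, *Irf5* and *Cebpb* are named after their values were seen. The list took 0.0992% ± 0.0243 of the counts in RFPneg and 0.0463% ± 0.0165 in RFPpos (SD, n = 5 each).

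Nonclassical monocytes, which patrol the vessel wall and carry little Ly6C, were represented by 12 genes, of which 7 were tested. Of these, 3 were called lower (7.42% of all genes tested were) and all 7 lay below 0 (median log2 fold change −2.65). All 7 had fewer than 15 counts over the RFPpos samples, so they passed the minimum only with the counts of RFPneg. Their direction therefore does not stand as a test of the list. *Pglyrp1*, a peptidoglycan-binding protein that neutrophils also make, had 68 counts in RFPneg and 1 in RFPpos (log2 fold change −5.27, SE 0.90, adjusted p = 4.96e-07 from edgeR). *Ace* had 21 and 0 counts (6.43-fold lower with RFPpos set at 3 counts, adjusted p = 0.0189 from edgeR), and the third gene called was *Spn*. Genes of recruitment and of the shared myeloid programme were called in both directions. Of 15 such genes 12 were tested (3.39% of all genes tested were called higher). Of these 12, 1 was called lower, 4 higher (*Csf1r*, *Itgam*, *Itgb2* and *Irf8*) and 7 in neither direction. Only 2 were called higher with DESeq2, median-of-ratios scaling, library size alone or filterByExpr, and without mouse 3 or mouse 4. With library sizes from the microglia core list, which holds *Csf1r*, 4 were called lower and 0 higher. *Csf1r*, the receptor for the growth factor of monocytes and microglia, had 1737 counts in RFPneg and 3777 in RFPpos (log2 fold change 1.35, SE 0.18, adjusted p = 9.23e-11 from edgeR). *Vcam1*, the endothelial ligand of the α4 integrin, had 277 and 83 (−1.54, SE 0.28, 2.91e-06). The monocyte ligand *Ccl2* had 5 counts in RFPneg and 0 in RFPpos, too few to test.

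**Figure D4:**
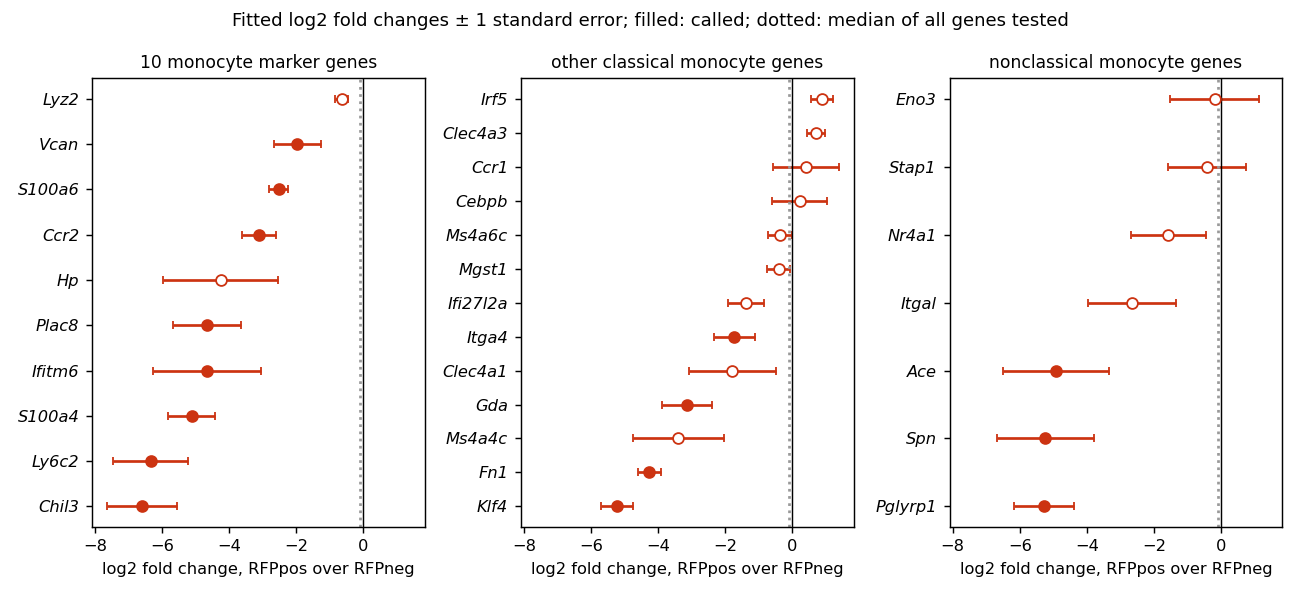
Fitted log2 fold changes of RFPpos over RFPneg ± 1 SE for the 10 monocyte marker genes, the other classical monocyte genes and the nonclassical monocyte genes that were tested; filled points were called and the dotted line is the median of all genes tested, −0.10. All 10 marker genes lie below 0, against 9 of 13 other classical monocyte genes and 7 of 7 nonclassical genes. Of the marker genes 8, and all 7 nonclassical genes, passed the minimum of 15 counts only with the counts of RFPneg.

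Many markers of other blood and vessel cells were lower in RFPpos along with the monocyte marker genes. Of all genes tested, 7.42% were called lower. In the neutrophil list 9 of the 10 genes tested were called lower, from *Wfdc21* with 214 counts in RFPneg and 0 in RFPpos to *Mmp8* with 79 and 6, and the exception was *Csf3r*. This list took 0.257 to 0.769% of the counts in RFPneg and 0.00371 to 0.0260% in RFPpos. Of its 16 genes 7 had 0 counts in every RFPpos sample, the defining marker *Ly6g* (9 counts in RFPneg) among them. Only 2 of these 7 were among the genes tested, of which 1.31% in all were at 0. In the T and NK cell list 6 of 10 were called lower (*Trbc2* with 53 and 0 counts, *Ms4a4b* with 143 and 4), with 0.0194 to 0.0524% and 4.48e-04 to 0.00319% of the counts. In RFPpos 14 of its 18 genes were at 0, *Cd3d*, *Cd3e* and *Cd3g* (18, 2 and 8 counts in RFPneg) included. Of these 14 only 7 were tested, and 1 (*Ncr1*) had no count in any sample. A zero in a gene with few RFPneg counts shows little. The dendritic cell and MHC class II list had 4 of 8 called lower (*H2-Aa* with 789 and 89, *H2-Ab1* with 559 and 77), and the B and plasma cell list 2 of 5 (*Igkc* with 416 and 2, *Jchain* with 54 and 2). Of the genes tested in these lists, 7 of 8 and 4 of 5 lay below 0. The exceptions, not called, were *Itgax* (16 and 25 counts, log2 fold change 0.97) and *Ighm* (291 and 254, 0.05). *Ighm* held 254 of the 290 RFPpos counts of the B and plasma cell list. All 4 erythrocyte genes tested (*Hbb-bt* with 334 and 10, *Hba-a2* with 68 and 9) and all 14 endothelial genes (*Emcn* with 160 and 0, *Pecam1* with 193 and 30) were called lower. The endothelial list took 0.208 to 0.922% of the counts in RFPneg and 0.0130 to 0.0427% in RFPpos. The neutrophil genes called, except *S100a8* and *S100a9*, had fewer than 15 counts over the RFPpos samples. So had all genes called in the T and NK cell and the B and plasma cell lists, and part of the erythrocyte and endothelial genes. Those genes passed the minimum of 15 counts only with the counts of RFPneg, so their calls do not stand as a test of the lists. Of the CNS-associated macrophage list, by contrast, 0 of 9 genes were called by edgeR's quasi-likelihood test in either direction (2 were lower at an unadjusted p under 0.05 and by the likelihood ratio test, 0 by DESeq2 and 3 with library sizes from the microglia core list), with 0.0258% ± 0.00264 of the counts in RFPneg and 0.0276% ± 0.00810 in RFPpos (SD, n = 5 each). The part of these other cells in the values of the shared marker genes was not tested.

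**Figure D5:**
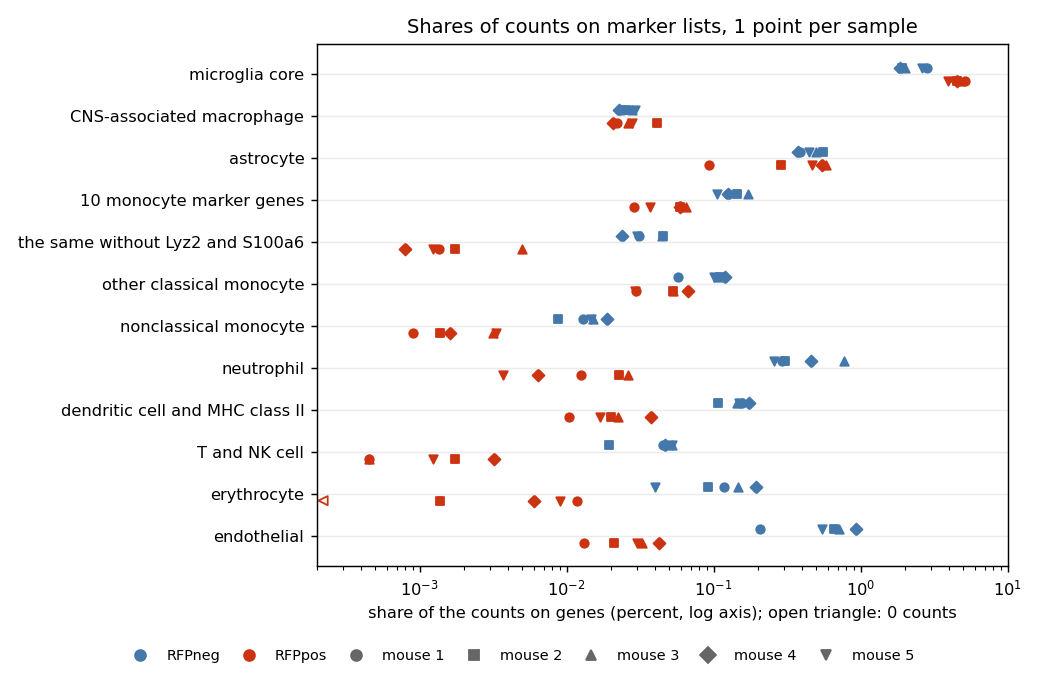
Share of the counts on genes (percent, log axis) for the 10 monocyte marker genes and for other marker lists, with 1 point per sample (RFPneg blue, RFPpos red, marker shapes give the mouse). The RFPneg and RFPpos points of the 10 genes are separate, more so without *Lyz2* and *S100a6*, while the CNS-associated macrophage and astrocyte points overlap.

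The summed counts of *Ly6c2*, *Ccr2*, *Plac8*, *Chil3*, *S100a4*, *Hp* and *Ifitm6* were 265, 372, 409, 229 and 280.3 CPM in the RFPneg samples of mice 1 to 5 and 13.5, 10.4, 26.9, 3.99 and 4.12 CPM in RFPpos. Among 7046 genes with at least 50 counts, the 5 whose log2 CPM followed this sum most closely over the 10 samples were *Ngp* (Pearson r = 0.99), *S100a8*, *Ddc*, *Car14* and *Igkc* (each r = 0.98). *Ngp* and *S100a8* are neutrophil genes, *Igkc* is the immunoglobulin κ constant region of B and plasma cells, and *Ddc* and *Car14* encode an amino acid decarboxylase and a membrane carbonic anhydrase. *Ngp* had 217 counts in RFPneg and 7 in RFPpos, and the RFPpos counts (1, 1, 5, 0 and 0) were highest in mouse 3, where the monocyte sum was highest among the RFPpos samples too. All 10 samples fall into the 2 populations, so these correlations include the step between them.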

How the data were processed

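Bulk RNA was sequenced from 1 RFPneg and 1 RFPpos sample of each of 5 mice. The authors prepared QuantSeq 3′ FWD libraries, processed the reads with the Lexogen pipeline for unique molecular identifiers and deposited counts per gene without normalization. The labels name mm10, without saying for which assay, and the annotation of the bulk counts is not given in the sources used here. Symbols were found for 47224 of 47643 identifiers in GENCODE M21 (GRCm38). Reads on no gene (32.1 to 48.6% per sample) and ambiguous reads (0.295 to 0.436%) stayed out of library sizes.

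Counts were tested in R 4.3.3 with edgeR 4.0.16 (quasi-likelihood F-test, TMM scaling, mouse as a block) over the 11103 genes with at least 15 counts over the 10 samples, and the fit was checked on simulated counts. The SE is the absolute log2 fold change divided by the square root of F. The pairing comes from the mouse numbers in the labels, with the statement of the methods that both populations came from the same mice. Deviations from the group means correlated within mice at 0.11, −0.00, 0.05, 0.00 and 0.01. CPM used the raw library totals. Pooled ratios have exact conditional 95% intervals, and a count of 0 was taken to allow 3 counts over the group. The folds given for genes at 0 do not include the counting error of RFPneg.

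The alternatives were the likelihood ratio test, DESeq2 1.42.0, other scalings (median of ratios, library size, 20 microglia core genes), other filters (filterByExpr, at least 1 count), no block, no fold threshold and each mouse left out. Named were all 10 genes, near relatives, the called genes of largest and smallest log2 fold change of each list described by name, and the 5 genes most like the sum of 7 of the genes, with the log2 CPM taken at a prior count of 2. Genes named beyond these, such as *Ighm*, *Itgax* and *Ptprz1*, were named after their values were seen. Lists were written from general knowledge. The genes and lists were chosen with earlier results of these data known.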

Additional observations from a re-analysis of the deposited data

Results flagged for a closer look

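In groups of 5 samples, a sample was picked out when its gap to the nearest other sample was large against the range of the group (Dixon's 95% critical value). Of 52 groups examined, 4 held such a sample. For normally distributed values chance picks about 1 in 20 groups, a rate that need not hold for low counts or for lists that share genes. A group with counts in only 1 sample is always picked. *Plac8* was picked because the RFPpos sample of mouse 3 had 4.48 CPM, which is 1 count, where the other RFPpos samples had 0. The share of the monocyte marker genes without *Lyz2* and *S100a6* stood apart in the same sample, at 0.00493% of the counts against 7.98e-04 to 0.00173% in the other RFPpos samples. In the T and NK cell list the RFPneg sample of mouse 2 was low, at 0.0194% against 0.0451 to 0.0524% in the others. In the ependymal and choroid plexus list the RFPpos sample of mouse 4 was high, at 0.163% against 0.0162 to 0.0444%.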

How the results depend on the processing

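The 8 monocyte marker genes called lower were 6 to 7 when a mouse was left out (6.01 to 7.21% of all genes were then called lower), with *Ly6c2*, *Ccr2*, *Plac8*, *Chil3*, *S100a4* and *S100a6* called each time. All 116 log2 fold changes of the 10 genes under the alternatives were below 0, of which 104 kept their side of the thresholds, 8 lost and 4 gained a call. Under filterByExpr only 4 of the 10 genes were tested and 3 were called (9.14% of all genes), since fewer genes reach its minimum, and 627 genes in all were called in place of 1200. DESeq2 called 776 genes, with 6 of the 10 lower (5.1% of all genes) and no adjusted p for *Hp* and *Ifitm6*. The cause of its lower count was not tested. Scaling to the microglia core list called 4817 genes, 4809 lower (99.8% of the calls, against 68.7%), and with 43.3% of all genes called lower the call of all 10 genes there says little. Without a replicate block 1252 genes were called and *Hp* joined, and the pairing changed no other call among the 10. Leaving out 1 mouse gave 910 to 1138 genes. The share of counts on the 10 genes was 0.0844 percentage points lower in RFPpos (SD 0.0176), 0.0581 with all reads in the totals, and 0.0329 without *Lyz2* and *S100a6*. *Hp* and *Ifitm6* had the fewest counts of the 10 genes, 15 and 18 over all samples.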
